A study of Mus musculus with 5 samples.

Results

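H/ACA box snoRNAs are small nucleolar RNAs that guide the conversion of uridine to pseudouridine in ribosomal RNA. Each folds into hairpins followed by a hinge, the H box, and by an ACA triplet close to the 3′ end, and each is bound by dyskerin, the enzyme of the reaction, and its partner proteins. The hairpins carry the loops that pair with the target RNA, and in mammals most of these RNAs are cut from introns of genes of the translation machinery or of non-coding host genes. U17, listed here as SNORA73, is an exception in function, being needed for cleavage of the ribosomal RNA precursor. The other large class, the C/D box snoRNAs, guides ribose methylation.

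The members were the entries of the deposited snoRNA tables that are named H/ACA box or that hold a SNORA symbol, without small Cajal body RNAs and without 1 row that names no single snoRNA. There were 64 such entries among 192 snoRNA entries, beside 99 C/D box entries, 14 small Cajal body RNAs, 9 other entries and 6 that name no single snoRNA. Small RNAs of 18 to 32 nucleotides were sequenced in mouse cells, so every value counts short fragments of snoRNAs and not the full-length molecules, which had a median length of 132 bases where a length was known. There was 1 library per cell type, and no comparison below has a replicate check or a test.

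The male germ cell libraries were all from CD-1 mice. Primordial germ cells came from male gonads at 13.5 days post coitum and were collected with anti-CD15 beads. Spermatogonia came from testes at 8.5 days after birth, after somatic cells had been allowed to settle and adhere. Spermatozoa came from the cauda epididymis and vas deferens of mature males, through a Percoll gradient and a hypo-osmotic shock. The oocyte library held 15210 Metaphase II oocytes, freed of cumulus cells and zona, from C57BL/6 females aged 4 to 5 weeks that had been superovulated with 5 IU of PMSG and, 48 h later, 5 IU of HCG. The zygote library held 15416 zygotes, collected 15 to 18 h after fertilization. They came from C57BL/6 females, also aged 4 to 5 weeks, that were superovulated in the same way and mated with DBA/6J males. Between the libraries of male germ cells and those of eggs, strain, sex and cell type cannot be told apart. All libraries were made from pools of cells, and fewer cells of a type and less RNA per cell cannot be told apart in them.

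The 4 tables of each library, of miRNAs, piRNAs, endo-siRNAs and snoRNAs, held 21827067 to 43242109 reads. snoRNAs made up 28.3% of these reads for primordial germ cells, 19.4% for spermatogonia, 4.71% for spermatozoa, 1.73% for the oocyte and 1.37% for the zygote. A single C/D box entry, SNORD60, held between 76.3% (zygote) and 92.6% (spermatogonia) of the snoRNA reads, so a level in reads per 1000000 snoRNA reads (RPM) is set largely by SNORD60. Levels are therefore also given per 1000000 reads of the 4 classes together (4-class RPM), and miRNAs per 1000000 miRNA reads (miRNA RPM). As a check of the labels, 5 miRNAs of late spermatogenesis summed to 235991 miRNA RPM in spermatozoa and to 924 to 8291 elsewhere. The 7 detected miRNAs of the miR-290 cluster, which is active in pluripotent cells and eggs, summed to 30941 for primordial germ cells, 9314 for the zygote, 4289 for the oocyte, 1403 for spermatogonia and 55.9 for spermatozoa, where 3 of the 7 were at 0. Markers of other cells were present as well. The 5 muscle miRNAs reached 233367 in spermatogonia and 231656 in spermatozoa against 9281 to 26929 elsewhere, and all 5 had reads in every library. Nearly all of both high sums was miR-143-3p, at 230893 in spermatogonia and 230279 in spermatozoa. The erythroid (18886), leukocyte (3047) and epithelial (23200) miRNA lists were highest in spermatozoa, against at most 1774, 540 and 9945 elsewhere. The endothelial (9053) and gonadal somatic (14981) lists were highest in spermatogonia, against at most 1051 and 5723 elsewhere. The neuronal list ran from 288 in spermatogonia to 3860 in primordial germ cells, where miR-9-5p held 3698. The other neuronal miRNAs were highest in spermatozoa, with miR-128-3p at 823 and miR-124-3p at 203. Among all these lists of other cell types the only markers at 0 were miR-144-3p in the oocyte and miR-142-5p in the oocyte and the zygote. The part of other cells in the H/ACA values was not tested.

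Of the H/ACA snoRNAs on which the differences below turn, 6 are shown first with their genes in GENCODE vM21 (assembly GRCm38, also called mm10). The sequences are printed as DNA, 5′ to 3′, with the 6-base H box motif (ANANNA, the match nearest the middle of the RNA) and the ACA of the last 8 bases in capitals. Snora7a is the most abundant member, Snora70 and Snora36b differ most between spermatozoa and oocyte, Snora44 leads in spermatozoa, Snora30 is among the members that were higher in spermatogonia than in primordial germ cells, and both copies of Snora73 are shown because the tables hold them as 1 entry.
Snora7a, chr6:115807975-115808114, minus strand, in Rpl32: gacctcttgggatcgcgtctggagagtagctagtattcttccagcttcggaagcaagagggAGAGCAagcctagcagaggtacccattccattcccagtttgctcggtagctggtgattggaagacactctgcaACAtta
Snora70, chrX:74272484-74272620, plus strand, in Rpl10: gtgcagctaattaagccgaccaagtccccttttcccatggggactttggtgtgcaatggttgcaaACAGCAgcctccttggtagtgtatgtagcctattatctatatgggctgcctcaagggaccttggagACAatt
Snora36b, chr1:185242907-185243038, plus strand, in Rab3gap2: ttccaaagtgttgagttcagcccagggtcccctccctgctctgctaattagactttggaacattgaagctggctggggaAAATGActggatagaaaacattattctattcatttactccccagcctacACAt
Snora44, chr4:132309941-132310069, plus strand, in Snhg12: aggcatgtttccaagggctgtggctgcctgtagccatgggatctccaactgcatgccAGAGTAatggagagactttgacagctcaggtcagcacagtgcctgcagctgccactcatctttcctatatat
Snora30, chr7:127527874-127528003, plus strand, in Srcap: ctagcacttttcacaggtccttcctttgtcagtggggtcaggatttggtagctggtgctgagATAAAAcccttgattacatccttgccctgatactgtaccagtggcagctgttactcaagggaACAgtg
Snora73b, chr4:132352322-132352526, minus strand, in Rcc1: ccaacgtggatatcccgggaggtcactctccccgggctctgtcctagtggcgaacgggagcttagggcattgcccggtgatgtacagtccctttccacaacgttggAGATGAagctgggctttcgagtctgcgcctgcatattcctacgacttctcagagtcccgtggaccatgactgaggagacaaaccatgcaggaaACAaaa
Snora73a, chr4:132352775-132352979, minus strand, in Rcc1: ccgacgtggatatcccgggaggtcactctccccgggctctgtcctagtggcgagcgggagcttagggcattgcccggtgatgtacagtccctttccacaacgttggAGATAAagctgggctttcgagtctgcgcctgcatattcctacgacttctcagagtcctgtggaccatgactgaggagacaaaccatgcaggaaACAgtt
Each of these loci lay in an intron of at least 1 transcript of its host gene, on the same strand. Rpl32 and Rpl10 encode ribosomal proteins, Rab3gap2 a subunit of a GTPase-activating protein, Srcap a chromatin remodeller and Rcc1 a nucleotide exchange factor for the GTPase Ran. Snhg12 is a non-coding snoRNA host gene, and the Snora73 loci also overlap the non-coding host gene Snhg3. In the sequence annotated for Snora44 no ACA was found in the last 8 bases. The capitals of the H box mark a motif match only. In Snora36b this match, at base 80 of 132, lies between stretches that can pair with each other, so it may not be the hinge.

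Of the 64 members, 32 were matched to GENCODE: 27 by symbol, 2 by a RefSeq synonym (MBI-87 is Snora36b and MBI-161 is Snora31) and 3 only as a family. They lay at 33 annotated loci with a median length of 132 bases, 2 of which overlap and both belong to SNORA43. An intron of a host gene on the same strand held 29 of the loci, 24 were in protein-coding hosts, 4 lay outside any host and 2 were on the X chromosome. An H box motif within 35% to 65% of the length together with an ACA in the last 8 bases, on the transcribed strand, was found in 90.9% of the 33 matched snoRNA genes with a sequence of their own, in 88.1% of the 42 annotated Snora genes, in 2.04% of 98 Snord genes and in 57.9% of all 884 annotated snoRNA genes in the same range of length. ANANNA is a loose motif, and the H box alone was found in 45.9% of the Snord genes.

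In RPM, H/ACA fragments took a larger share of the snoRNA reads in the oocyte and zygote libraries than in any male germ cell library. The members summed to 11137 reads from primordial germ cells, 8512 from spermatogonia, 1685 from spermatozoa, 8298 from the oocyte and 9785 from the zygote. They made up 0.148% of the snoRNA reads for primordial germ cells (exact Clopper-Pearson 95% interval 0.145% to 0.151%), 0.167% for spermatogonia (0.163% to 0.170%) and 0.164% for spermatozoa (0.156% to 0.172%). In the oocyte they made up 1.11% (1.08% to 1.13%) and in the zygote 1.65% (1.62% to 1.69%). The intervals of spermatogonia and spermatozoa overlapped, and those of the oocyte and the zygote did not overlap with each other or with any male germ cell library. Other snoRNAs also had their highest shares in the eggs. Small Cajal body RNAs held 0.0661%, 0.146%, 0.0311%, 2.66% and 3.82% in the same order, and C/D box entries other than SNORD60 held 8.5%, 6.97%, 11.6%, 16.9% and 18%. Intervals here and below cover counting error only, since copies made by PCR are not independent molecules.

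The order of the libraries depended on the total. With SNORD60 taken out of the total, the H/ACA share was 1.68% for primordial germ cells, 2.25% for spermatogonia, 1.38% for spermatozoa, 5.29% for the oocyte and 6.97% for the zygote, so the egg libraries stayed highest. In 4-class RPM the members instead reached 419 for primordial germ cells and 323 for spermatogonia, above 192 for the oocyte, 226 for the zygote and 77.2 for spermatozoa. The spermatozoa were lowest on this scale. The oocyte exceeded spermatozoa on every total, by 6.75-fold per snoRNA read (95% interval 6.41 to 7.12), 3.84-fold without SNORD60 (3.64 to 4.04) and 2.49-fold per read of the 4 classes (2.36 to 2.62). The zygote exceeded the oocyte by 1.49-fold (1.45 to 1.54), 1.32-fold (1.28 to 1.36) and 1.18-fold (1.15 to 1.21) on the same totals. Spermatozoa and spermatogonia were level per snoRNA read (0.984-fold, 0.933 to 1.04), while per read of the 4 classes spermatogonia were 4.19-fold higher (3.97 to 4.41).

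**Figure D1:**
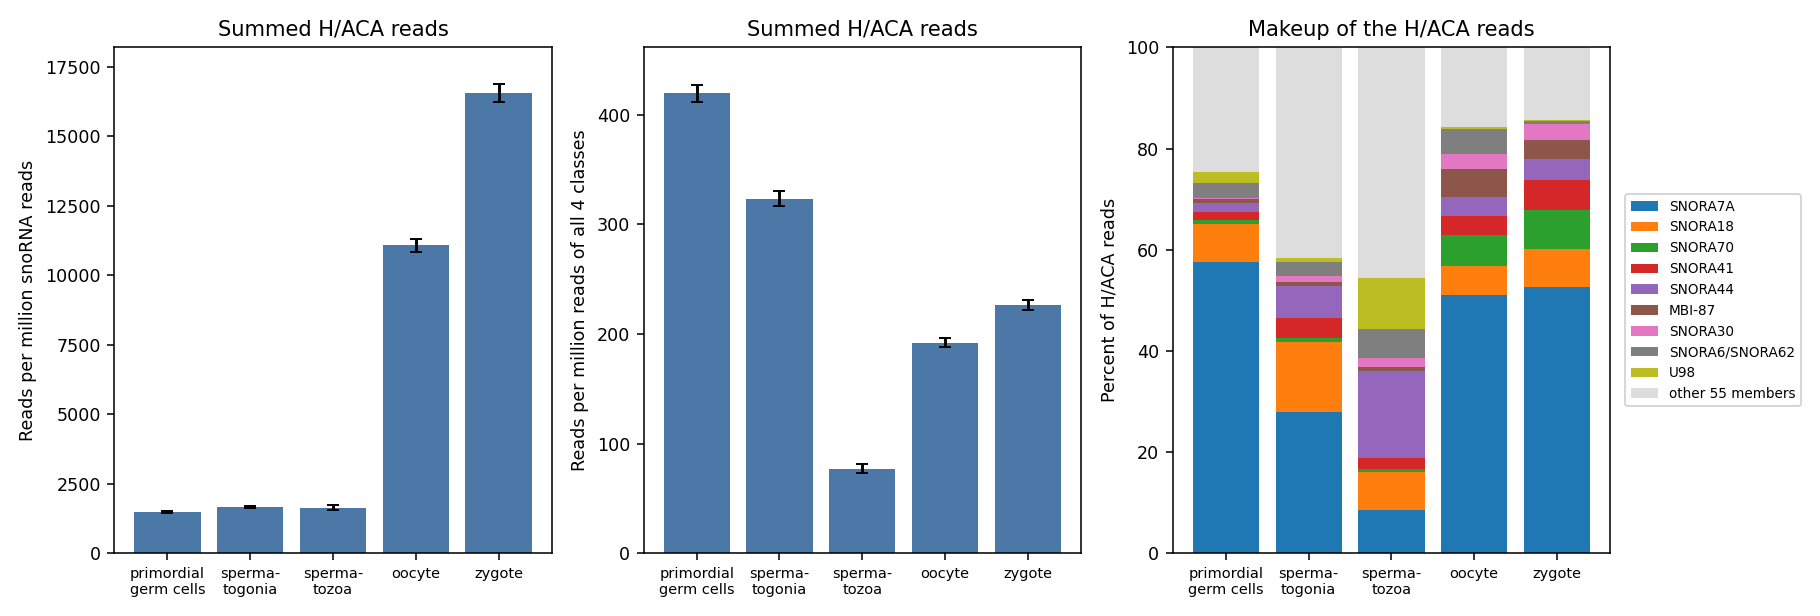
Summed H/ACA reads in each of the 5 libraries in RPM (left) and in 4-class RPM (middle), with exact 95% binomial intervals as bars, and the percentage of the H/ACA reads held by 9 members and by the other 55 (right). The egg libraries are highest on the left, primordial germ cells are highest in the middle, and SNORA7A holds over 50% of the H/ACA reads in 3 libraries but 8.49% in spermatozoa.

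A single member, SNORA7A, set much of these sums. SNORA7A (ACA7), which guides pseudouridylation of the large subunit rRNA, had 6421 reads from primordial germ cells, 2371 from spermatogonia, 143 from spermatozoa, 4234 from the oocyte and 5155 from the zygote. This was 57.7% of all H/ACA reads for primordial germ cells, 27.9% for spermatogonia, 8.49% for spermatozoa, 51.0% for the oocyte and 52.7% for the zygote. Its share was thus high at both the fetal germ cell and the egg and lowest in spermatozoa, where SNORA44 held the most, 17.1%. Without SNORA7A the members made up 0.0627% of the snoRNA reads for primordial germ cells, 0.12% for spermatogonia, 0.150% for spermatozoa, 0.542% for the oocyte and 0.783% for the zygote. The gap per snoRNA read between egg and male germ cell libraries was therefore present without this entry. The 5 leading members of each library held 72.3% of its H/ACA reads for primordial germ cells, 59.6% for spermatogonia, 49.1% for spermatozoa, 73.2% for the oocyte and 77.9% for the zygote.

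The remaining members were mostly sparse. Reads were found for 49 members from primordial germ cells, 62 from spermatogonia, 49 from spermatozoa, 53 from the oocyte and 58 from the zygote, and in the same order 17, 15, 4, 10 and 11 members had at least 100 reads. There were 39 members with a read in all 5 libraries and 25 with fewer than 100 reads over all 5. SNORA43 was seen only with primordial germ cells, at 18 reads, and SNORA77 only with spermatogonia, at 21 reads, both named after their values were seen. A count of 0 allows up to 3 reads, which is 0.399 RPM for primordial germ cells, 0.587 for spermatogonia, 2.92 for spermatozoa, 4.00 for the oocyte and 5.07 for the zygote. Where SNORA77 was at 0, its spermatogonial level of 4.11 RPM was under that limit in the zygote and close to it in the oocyte, so on this scale a level like that of spermatogonia could go unseen in the eggs. In 4-class RPM its spermatogonial level of 0.797 was above the limit of 0.0694 in both egg libraries. SNORA43, at 2.39 RPM in primordial germ cells, was under the limits of spermatozoa, oocyte and zygote. In 4-class RPM its level of 0.678 was above the limits of the other libraries, 0.0694 to 0.137. Between 10 and 15 members per library had a fractional read number, as reads shared between entries would give.

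The profile over the members was close between oocyte and zygote and least close between spermatozoa and the eggs. The part of the H/ACA composition that 2 libraries had in common (the sum over members of the smaller of both percentages) was 89.6% for oocyte and zygote, 74.3% for primordial germ cells and oocyte, 61.3% for primordial germ cells and spermatogonia, 56.7% for spermatogonia and spermatozoa, 38.7% for spermatozoa and oocyte and 35.7% for spermatozoa and zygote. Spearman's rho over 53 members with at least 20 reads in all was 0.913 for oocyte and zygote, 0.648 for primordial germ cells and spermatogonia, 0.547 for primordial germ cells and oocyte and 0.452 for spermatozoa and oocyte, as a description over entries that share their library and its depth. By rank, primordial germ cells were thus nearer to spermatogonia than to the oocyte, and SNORA7A alone, at 57.7% and 51.0%, gave most of the 74.3% that primordial germ cells and oocyte had in common.

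Levels in RPM followed the sums for most members. Among the 39 members with at least 100 reads, 23 were highest in the zygote, 10 in the oocyte, 5 in spermatozoa, 1 in spermatogonia and 0 in primordial germ cells. In 4-class RPM, 14 of the same 39 were highest for primordial germ cells, 15 for spermatogonia, 2 for spermatozoa, 2 for the oocyte and 6 for the zygote. As a share of the H/ACA reads alone, 13 were highest in spermatozoa, 9 in spermatogonia, 8 in primordial germ cells, 6 in the zygote and 3 in the oocyte. SNORA7A took 8.49% of that total in spermatozoa and 27.9% to 57.7% elsewhere, which raises the shares of the other members in spermatozoa. Which cell type held the highest level of a member thus depended on the total used. These counts were not made over all snoRNA entries, so they do not set the members apart from other snoRNAs.

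**Figure D2:**
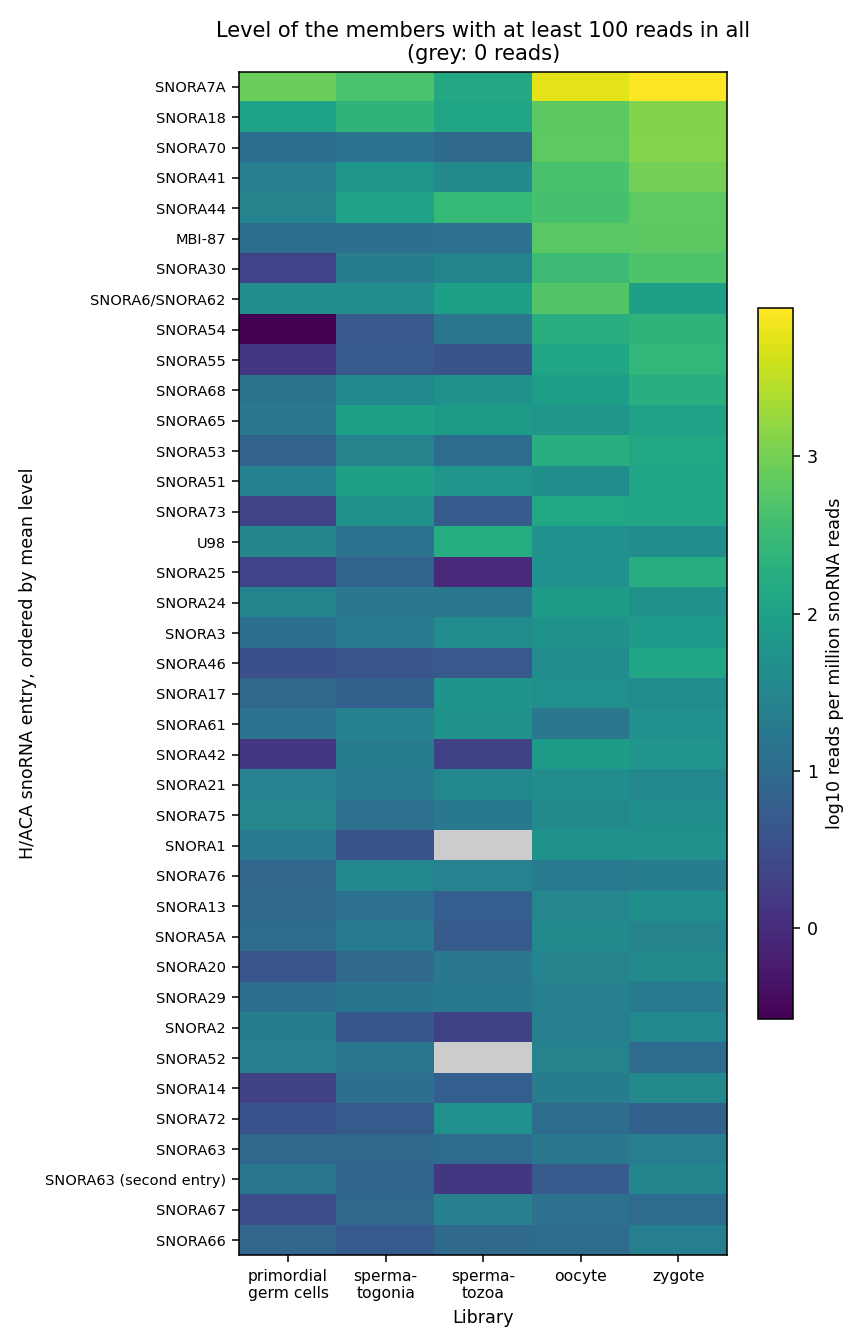
Level of the 39 members with at least 100 reads over the 5 libraries, as log10 of RPM, by library, ordered from top to bottom by mean level. Most rows are brightest in the oocyte and zygote columns, U98 and SNORA72 are brightest in spermatozoa, and SNORA1 and SNORA52 are grey (0 reads) in spermatozoa.

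The largest group by host gene were the 12 members carried by genes of ribosomal proteins, among them SNORA7A, SNORA70, SNORA62 and SNORA65. This list was drawn from general knowledge, like the 3 other host lists, and it was not complete. The annotation gave 1 Snhg member, SNORA74A, the protein-coding host Gm28285 instead, and placed SNORA73 in the protein-coding gene Rcc1 as well as in Snhg3. Hosts of unmatched members were not checked. Together the 12 members of ribosomal protein genes held 68.4% of the H/ACA reads for primordial germ cells, 43.5% for spermatogonia, 28.7% for spermatozoa, 64.8% for the oocyte and 63.7% for the zygote. Without SNORA7A the list held 10.8%, 15.6%, 20.2%, 13.8% and 11% of a total in which SNORA7A was still counted. SNORA7A took only 8.49% of that total in spermatozoa, which leaves more of it to every other member there. These shares therefore do not show in which library the rest of the list was highest. In RPM the list without SNORA7A was at 159, 261, 331, 1529 and 1817. The 7 members listed under Snhg host genes held 5.0% of the H/ACA reads for primordial germ cells, 12.7% for spermatogonia, 22.6% for spermatozoa, 6.0% for the oocyte and 5.6% for the zygote. The high value in spermatozoa rested on SNORA44. The list without it held 3.1%, 6.4%, 5.5%, 2.3% and 1.5% of all H/ACA reads, SNORA44 included, with spermatogonia highest. The 6 members of Taf1d, which encodes a subunit of a factor for RNA polymerase I, held 9.1%, 15.5%, 8.1%, 7.0% and 9.0%. The 5 members of translation factor genes held between 2.7% (primordial germ cells) and 6.2% (zygote).

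SNORA70 (U70), a guide for the small subunit rRNA carried by the X-linked gene Rpl10, had 88 reads from primordial germ cells, 72 from spermatogonia, 10 from spermatozoa, 497 from the oocyte and 754 from the zygote. Its level was 11.7, 14.1 and 9.73 RPM in the 3 male germ cell libraries, 663 RPM in the oocyte and 1274 RPM in the zygote. MBI-87 (Snora36b) had a like pattern, with 11.3 RPM for primordial germ cells, 12.3 for spermatogonia, 13.6 for spermatozoa, 600 for the oocyte and 637 for the zygote. Both were nearly level over the male germ cell libraries and far higher in both egg libraries. In 4-class RPM the gap was smaller: SNORA70 was at 3.31, 2.73 and 0.458 in the male germ cell libraries, 11.5 (oocyte) and 17.4 (zygote), and MBI-87 was at 3.20, 2.39, 0.641, 10.4 and 8.72. Both members remained higher in the egg libraries than in any male germ cell library on that scale.

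SNORA18, of the Taf1d host, was at 109 RPM for primordial germ cells, 230 for spermatogonia, 125 for spermatozoa, 642 for the oocyte and 1239 for the zygote. SNORA41, carried by the elongation factor gene Eef1b2, was at 24.1, 66.4, 36, 433 and 990 RPM in the same order. In 4-class RPM SNORA18 stood at 30.9, 44.6, 5.86, 11.1 and 17 and SNORA41 at 6.81, 12.9, 1.70, 7.52 and 13.6, so that SNORA18 was highest in spermatogonia and SNORA41 was nearly level between spermatogonia and zygote. On both totals spermatozoa held the lowest or next to lowest value of either member. SNORA30, carried by Srcap, was at 2.19 RPM for primordial germ cells, 21.4 for spermatogonia, 29.4 for spermatozoa, 337 for the oocyte and 507 for the zygote. Its reads were fractional (16.5, 109.5, 30.25, 252.75 and 299.75), as division of reads between entries would give.

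To set different members beside each other, levels were also scaled to 100 bases of their annotated sequence. Among the matched members SNORA7A led on this scale in every library but spermatozoa, with 610 RPM per 100 bases for primordial germ cells, 331 for spermatogonia, 99.4 for spermatozoa, 4034 for the oocyte and 6223 for the zygote. In spermatozoa SNORA44 led with 217. SNORA70 was at 484 (oocyte) and 930 (zygote) on this scale, and SNORA73, with its longer RNA, at 63.1 and 61. These values cover only the members that have an annotated length, so SNORA18 is left out. The length of a full RNA is no guide to how many of its fragments fall between 18 and 32 nucleotides.

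Primordial germ cells and spermatogonia set fetal against postnatal male germ cells. Of 29 members with at least 100 reads over both libraries, 5 were at least 4-fold higher in spermatogonia and 2 at least 4-fold lower, against 16.3% and 3.1% of all 129 snoRNA entries measured in the same way. The median log2 ratio was 0.42 for the members and 0.33 for all entries, so the members were near the background. In 4-class RPM 3 were higher and 2 lower, against 6.98% and 4.65%. SNORA73 (U17) had 16.67 reads before birth and 281.5 in spermatogonia, or 2.22 and 55.1 RPM, a 24.9-fold higher level (95% interval 15.0 to 42.5). SNORA42 had 11 and 108 reads (1.46 and 21.1 RPM, 14.5-fold, 7.77 to 29.8), and SNORA30 was 9.77-fold higher (5.96 to 18.3). SNORA65 (U65), a guide for the large subunit rRNA carried by Rpl12, stood at 17.3 and 95.1 RPM (5.50-fold, 4.53 to 6.73), and SNORA76 at 8.11 and 33.9 RPM (4.18-fold, 3.10 to 5.69). All 5 were also higher in spermatogonia on each of the 5 other totals tried, though not always by 4-fold. Spermatogonia also had the higher summed miRNAs of muscle (233367 against 9281 miRNA RPM), endothelium (9053 against 1051) and gonadal soma (14981 against 1734), whose part in these ratios was not tested.

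The members that were lower in spermatogonia were SNORA1, at 18.7 RPM in primordial germ cells and 3.91 RPM in spermatogonia (4.79-fold lower, 2.99 to 8.08), and SNORA2, with 157 reads and 24 reads (4.44-fold lower, 2.88 to 7.14). SNORA75 (U23), carried by the nucleolin gene Ncl, followed at 32.7 and 13.3 RPM (2.46-fold lower, 1.87 to 3.26). SNORA7A was at 854 and 464 RPM, 1.84-fold lower (1.75 to 1.93). These 4 were lower on all totals tried, but SNORA1 and SNORA2 were under 4-fold lower without SNORD60 in the total (log2 ratios −1.98 and −1.88), and with a pseudocount of 5 reads no member was 4-fold lower. SNORA1 and SNORA18 share the host gene Taf1d, yet SNORA18 was 2.11-fold higher in spermatogonia (1.93 to 2.31). That difference was smaller in 4-class RPM (log2 ratio 0.53) and with edgeR TMM factors (0.45), and its direction turned with the deposited factor (−0.03).

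Between spermatogonia and spermatozoa 19 members were measured. One, U98, was at least 4-fold higher in spermatozoa and 2 were at least 4-fold lower, against 13% and 8.7% of all 115 entries, and the median log2 ratio was −0.30 against −0.01. U98 had 229 reads from primordial germ cells, 72 from spermatogonia, 171 from spermatozoa, 38 from the oocyte and 26 from the zygote, or 30.4, 14.1, 166, 50.7 and 43.9 RPM. Its level in spermatozoa was 11.8-fold that in spermatogonia (8.91 to 15.8), and this was the only measured member that stayed higher in spermatozoa in 4-class RPM (7.83 against 2.73). SNORA44, a guide for the small subunit rRNA, was at 27.8 RPM for primordial germ cells, 105 for spermatogonia, 280 for spermatozoa, 415 for the oocyte and 669 for the zygote. Its 2.67-fold higher level in spermatozoa than in spermatogonia (2.30 to 3.08) turned round in 4-class RPM, with 13.2 against 20.4. SNORA61, which shares the host Snhg12 with SNORA44, was at 25.6 and 55.5 RPM (2.16-fold higher, 1.56 to 2.97), and this too turned round on that total, with 4.97 and 2.61.

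SNORA73 was 9.99-fold lower in spermatozoa than in spermatogonia (4.29 to 26), from 281.5 reads to 5.67. SNORA42 was 10.9-fold lower (2.94 to 90.8), with only 2 reads in spermatozoa. Both members that stood out in spermatogonia against primordial germ cells were thus back at a low level, 5.52 and 1.95 RPM, in spermatozoa. SNORA5A was 3.85-fold lower (1.70 to 12.9) and SNORA7A 3.34-fold lower (2.82 to 3.98). In 4-class RPM, 10 of the 19 members were at least 4-fold lower in spermatozoa and 0 higher, against 51.3% and 1.74% of all entries, so this wider drop was shared by snoRNAs at large. SNORA1 and SNORA52, the latter carried by Rplp2, had 0 reads in spermatozoa against 20 and 82 in spermatogonia, too few to be measured here. The spermatogonial levels were 3.91 and 16.1 RPM, and a count of 0 in spermatozoa allows up to 2.92 RPM. For SNORA1 the 0 thus says little. Muscle miRNAs were near equal in both libraries (233367 and 231656 miRNA RPM), and erythroid, leukocyte and epithelial miRNAs were higher in spermatozoa; their part was not tested.

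**Figure D3:**
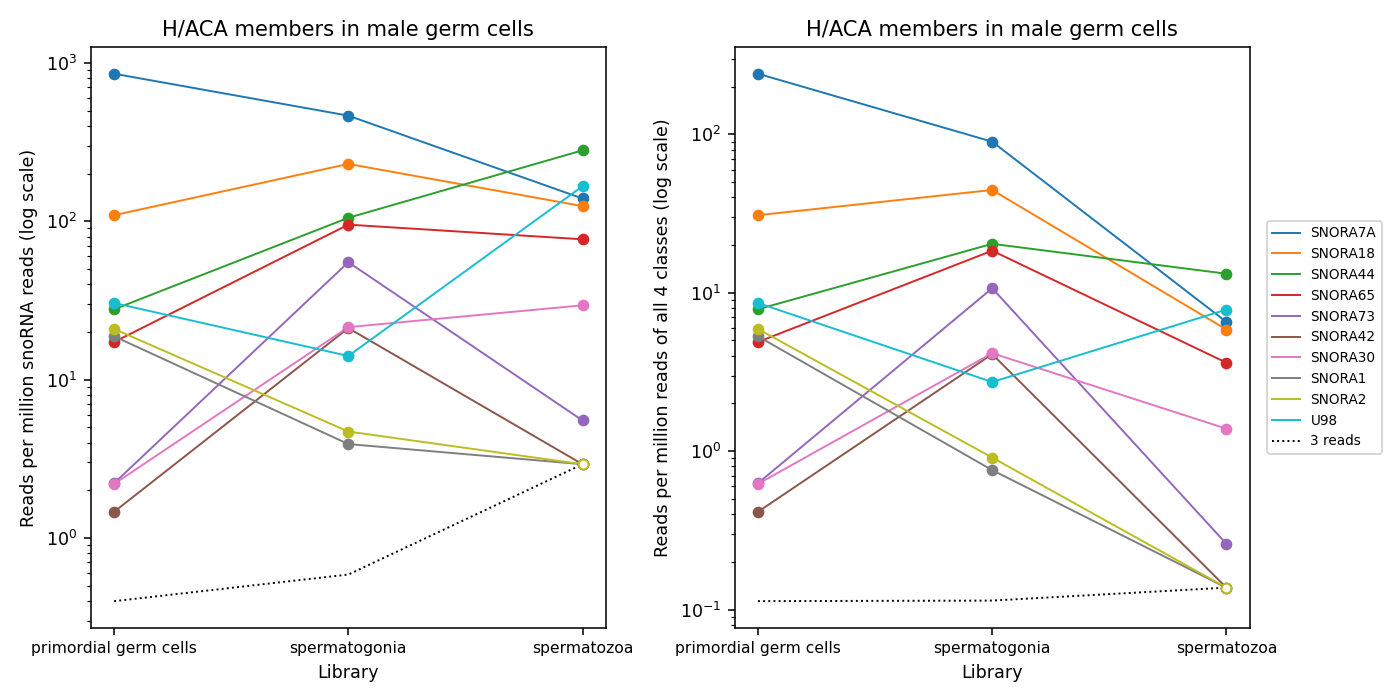
Level of 10 members in the 3 male germ cell libraries in RPM (left) and in 4-class RPM (right), on log axes, with 1 library per point and open circles drawn at the 3-read line for counts under 3. SNORA73 and SNORA42 are highest in spermatogonia, SNORA7A falls from left to right, and U98 is higher in spermatozoa than in spermatogonia on both totals.

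In RPM the gametes, spermatozoa and oocyte, had the largest median difference of the 4 comparisons. Among the 14 measured members, spermatozoa were lower by 4-fold or more for 10 and higher for 0, against 45.1% and 7.84% of all 102 entries. The median log2 ratio of spermatozoa over oocyte was −3.52 for the members, −1.40 for all entries and −1.13 for C/D box entries. The 2 small Cajal body RNAs measured were both at least 4-fold lower, with a median of −5.60, so such a gap was not seen in H/ACA members alone. SNORA70 was lowest, at 9.73 against 663 RPM, 68.1-fold lower (36.7 to 143). MBI-87 was 44.1-fold lower (26 to 81.2) and SNORA7A 40.6-fold lower (34.4 to 48.3). SNORA73 (23.5-fold), SNORA53 (17.2-fold), SNORA41 (12.0-fold), SNORA54 (12.0-fold) and SNORA30 (11.5-fold) followed, then SNORA62 (5.77-fold) and SNORA18 (5.15-fold). Spermatozoa had only 5.67 reads of SNORA73, 11 of SNORA53, 37 of SNORA41, 16 of SNORA54 and 30.25 of SNORA30, so the order among them is uncertain. On every total based on all snoRNAs or on the 4 classes the 10 members that were at least 4-fold lower stayed lower in spermatozoa. As a share of H/ACA reads, SNORA62 and SNORA18 turned round.

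The other 4 measured members did not share this gap. U98 was 3.28-fold higher in spermatozoa than in the oocyte (2.30 to 4.8), with 166 and 50.7 RPM. SNORA65 was at 76.9 and 64 RPM (1.20-fold, 0.828 to 1.76), an interval that includes equal levels. SNORA44 was at 280 and 415 RPM (0.676-fold, 0.574 to 0.796) and SNORA68 at 55.5 and 92.0 RPM. SNORA44 and SNORA68 were higher in spermatozoa on each of the other totals. In 4-class RPM 1 member, U98, was at least 4-fold higher in spermatozoa and 8 were at least 4-fold lower, against 18.6% and 21.6% of all entries. Strain differed along with sex between these libraries. The summed muscle miRNAs, nearly all miR-143-3p, were at 231656 miRNA RPM in spermatozoa and 26929 in the oocyte. Of these miRNAs only miR-133a-3p was higher in the oocyte (4.14 against 2.19).

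**Figure D4:**
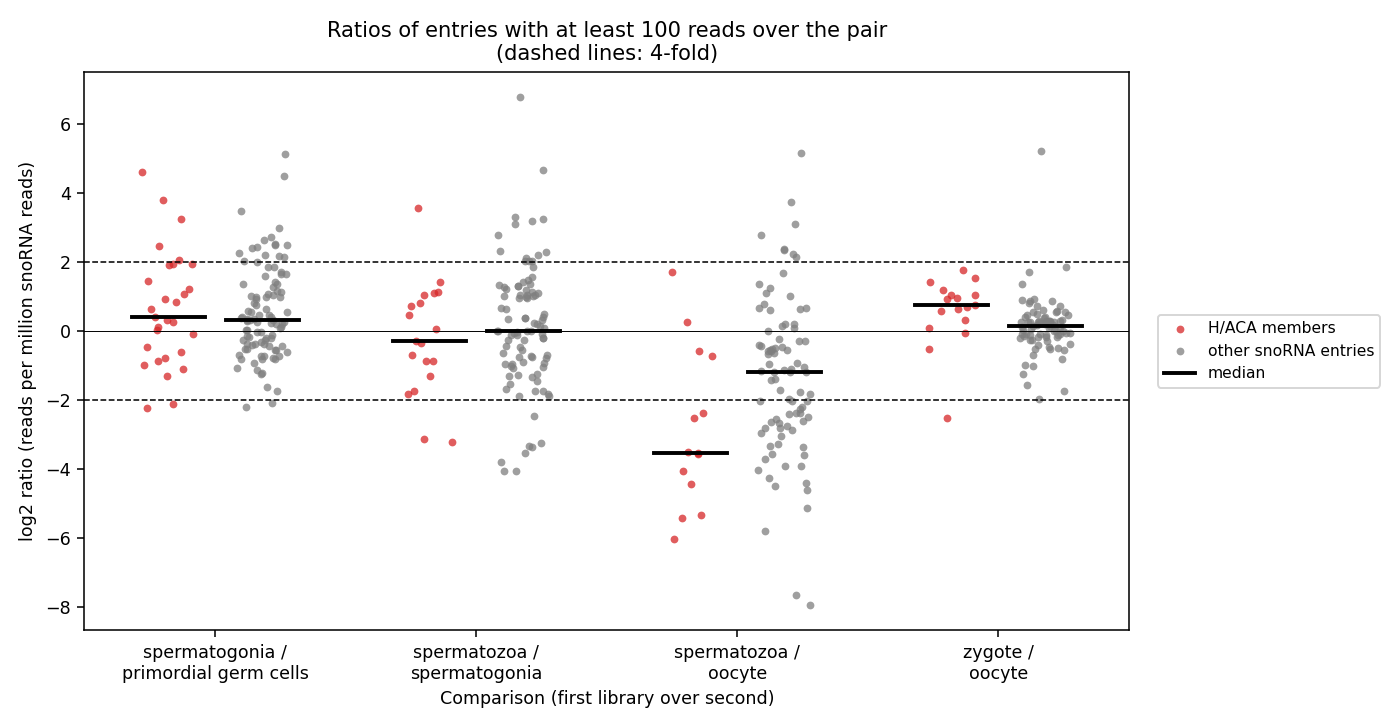
Log2 ratio of RPM in the 4 comparisons, first library over second, for H/ACA members (red) and all other single snoRNA entries (grey) with at least 100 reads over the pair; black lines are medians and dashed lines mark 4-fold. The members lie furthest from the others in spermatozoa over oocyte, with a median of −3.52.

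Between oocyte and zygote 16 of 17 measured H/ACA members were within 4-fold of each other. The zygote was higher by 4-fold or more for 0 and lower for 1, against 1.01% and 1.01% of all 99 entries, and in 4-class RPM also for 0 and 1, against 1.01% and 3.03%. The median log2 ratio was 0.75 for the members, 0.22 for all entries and 0.12 for C/D box entries. Above 0 were 14 of the 17 members (12 in 4-class RPM), against 62 of all 99 entries (34 in 4-class RPM). The lower member was the entry SNORA6/SNORA62 (E2), carried by the ribosomal protein gene Rpsa and a guide for the large subunit rRNA. It had 333 reads from primordial germ cells, 233 from spermatogonia, 97 from spermatozoa, 408 from the oocyte and 55.33 from the zygote, or 44.3, 45.6, 94.4, 544 and 93.5 RPM. In RPM the oocyte stood apart from the other 4 libraries, whereas in 4-class RPM (12.5, 8.84, 4.44, 9.44 and 1.28) the zygote stood apart as the lowest. The zygote was 5.82-fold lower than the oocyte (4.41 to 7.91), and at least 4-fold lower on each of the totals tried. This was also the only snoRNA entry of all 99 that was at least 4-fold lower in the zygote in RPM. A second SNORA62 entry held 1 read (oocyte) and 0.67 reads (zygote).

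The highest ratios of zygote over oocyte were those of SNORA25 (37.67 and 103 reads, 3.46-fold, 2.35 to 5.12), SNORA46 (31 and 71 reads, 2.90-fold, 1.88 to 4.58) and SNORA51 (35 and 74 reads, 2.68-fold, 1.77 to 4.13). All 3 were higher in the zygote on each of the totals tried. The leading members were nearer to each other, with SNORA41 at 2.28-fold (1.99 to 2.62), SNORA18 at 1.93-fold (1.72 to 2.17), SNORA70 at 1.92-fold (1.71 to 2.16) and SNORA7A at 1.54-fold (1.48 to 1.61). MBI-87 was at 1.06-fold (0.923 to 1.22) and SNORA73 at 0.967-fold (0.705 to 1.32), both with an interval that includes equal levels. SNORA53 was 1.43-fold lower in the zygote (1.08 to 1.92). Besides SNORA62 it was the only measured member that was lower on all totals tried.

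**Figure D5:**
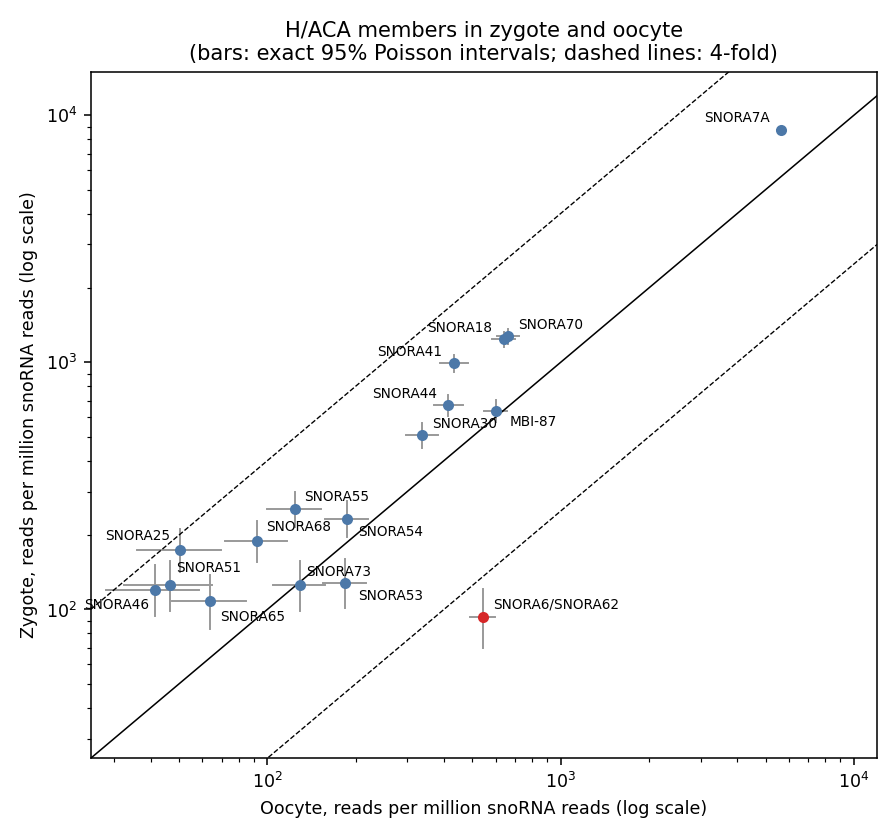
Level of the 17 measured members in the zygote against the oocyte, in RPM on log axes, with exact 95% Poisson intervals as bars, a solid line at equal levels and dashed lines at 4-fold. SNORA6/SNORA62 (red) lies below the lower dashed line, at 93.5 against 544, and 14 of the 17 members lie above the solid line. Of all 99 snoRNA entries, most of them not drawn, 62 were higher in the zygote.

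Some entries name RNAs that have near-identical copies, and their values are uncertain, since the way reads were divided between copies is not stated. SNORA73 combines both annotated copies, Snora73a and Snora73b. SNORA63 (E3) has 2 entries, with 69.5 and 118.5 reads from primordial germ cells, 44 and 40 from spermatogonia, 10.5 and 1.5 from spermatozoa, 13 and 4 from the oocyte and 13.5 and 18.5 from the zygote. The SNORA5A and SNORA2 entries were matched only to relatives, Snora5c and Snora2b.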

How the data were processed

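Per the labels' protocols, total RNA was extracted with TRIzol and inserts of 18 to 32 nucleotides were sequenced. The submitters' processing notes name Bowtie 0.12.7, DESeq and mm10 but no role for them, nor how reads that match several places were treated. The deposited read numbers are expected counts, partly fractional. The deposited TMM column is a signal that was found to be a constant multiple of the reads within a library (0.672 to 1.37), and it served only as an alternative.

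The members, lists and the rule for named members (the 8 highest by mean level, and the 3 highest and 3 lowest ratios of a comparison) were chosen with earlier results of these data known. Reads were scaled to the 186 entries that name a single snoRNA. Members whose reads summed to 100 or more over both libraries were compared, with 0.5 reads added before the log2 ratio, and counted at 4-fold. Ratio intervals are exact for 2 Poisson counts given their sum, after rounding to whole reads. With 1 library per group no test was made. Totals, minimum reads and pseudocount were varied; edgeR 4.0.16 gave TMM factors on rounded reads. The calculation was tested on simulated data (Python 3.11.15, SciPy 1.17.1). Sequences, loci and hosts came from GENCODE vM21, and synonyms from RefSeq.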

Additional observations from a re-analysis of the deposited data

Results flagged for a closer look

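A row named only as an H/ACA snoRNA, which belongs to no single member and entered no comparison, held 469.27 reads from primordial germ cells, 559.57 from spermatogonia, 209.63 from spermatozoa, 431.7 from the oocyte and 367.48 from the zygote. This is above the 3 reads that a count of 0 allows in every library, and equals 11.1% of this row and the members together in spermatozoa against 3.62% to 6.17% elsewhere. A row for U17D, also outside the members, held 14 reads from primordial germ cells and 15 from spermatogonia, and 0 in the other libraries.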

How the results depend on the processing

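No paired analysis was possible because there was 1 library per cell type and no comparison came from a test. For the H/ACA share of snoRNA reads, other totals gave, in primordial germ cells, spermatogonia, spermatozoa, oocyte and zygote, 0.0419%, 0.0323%, 0.00772%, 0.0192% and 0.0226% (of the 4 classes), 1.68%, 2.25%, 1.38%, 5.29% and 6.97% (without SNORD60) and 0.0627%, 0.12%, 0.150%, 0.542% and 0.783% (without SNORA7A in the sum). With the entries that name no single snoRNA in the total, the oocyte was at 1.07% and the zygote at 1.58%.

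Counts of members at least 4-fold apart moved as follows. Spermatogonia over primordial germ cells (5 higher, 2 lower) gave 3 higher per read of the 4 classes, with edgeR TMM factors and with the deposited factor, 8 without SNORD60, 14 at a minimum of 20 reads and 23 at 1 read; lower were 0 without SNORD60 and with a pseudocount of 5, 5 with the deposited factor and 4 at 1 read. Spermatozoa over spermatogonia (1 higher, 2 lower) gave 0 higher over the 4 classes, 5 at 20 reads and 9 at 1 read; lower were 10 over the 4 classes, 4 without SNORD60, 7 with the deposited factor, 12 at 20 reads, 13 at 1 read and 1 with a pseudocount of 5. Spermatozoa over oocyte (0 higher, 10 lower) gave 1 higher over the 4 classes, without SNORD60, with TMM factors and with the deposited factor, 2 at 20 reads and 4 at 1 read; lower were 19 and 27 at those minimums. As a share of H/ACA reads, an alternative chosen after seeing the data, it gave 4 higher and 3 lower. Counts within 1.5 times of these are not listed, apart from 8 lower in spermatozoa than in the oocyte on the 4 other totals. Zygote over oocyte (0 higher, 1 lower) gave 1 higher at 20 reads, and 8 higher and 3 lower at 1 read. A total moves every ratio of a comparison alike; per read of the 4 classes the shift was −0.55, −2.04, 1.44 and −0.34 on the log2 scale in the order above. The 3 reads that a count of 0 allows are worth most RPM in the zygote (5.07, against 4.00 for the oocyte and 2.92 for spermatozoa) and most 4-class RPM in spermatozoa (0.137, against 0.0694 to 0.114).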
